A study of Homo sapiens with 47 samples.

Results

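The part of this series taken here is the comparison of the P5_EPI libraries (r1 to r3), the epithelial fraction at passage 5, with the 36h libraries (r1 to r3), paired by replicate number. The 6 libraries, of 47 in the series, were chosen by their labels alone. All come from bulk polyA RNA-seq of WA09 (H9) human embryonic stem cells, an established line grown without feeders, over a course from the undifferentiated culture (t0) through 36 h to passage 10. Replicate numbers mark independent differentiations, and each of the 3 gave the 36 h, P5_EPI and P5_MES libraries (P9 has r1 and r2 only).

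The 36h libraries are whole cultures after 36 h in N2B27 without vitamin A, with CHIR-99021 to raise WNT signalling, rhFGF2, the inverse agonist of retinoic acid receptors AGN193109 and the kinase inhibitor Y-27632. The label calls these cells neuromesodermal progenitor (NMP) like. For the later passages the cells were detached with TrypLE and replated in the same agents. At passage 5 an epithelial (EPI) and a mesenchymal (MES) fraction were enriched by selective detachment with TrypLE, and the label of the EPI fraction calls it neural progenitors. The fraction is enriched and not sorted, so cells of the other fraction may remain in it. Time in culture, passaging and fractionation all differ between the compared groups, and their parts in any difference were not tested.

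The libraries held 34469125, 39908157 and 54361945 assigned reads for 36h r1 to r3 and 61252964, 54327233 and 49545981 for P5_EPI r1 to r3 (all libraries, 13029491 to 64082859). Mitochondrial transcripts made up 4.05%, 5.72% and 5.15% of the reads of the 36h libraries and 3.44%, 2.2% and 2.2% of those of P5_EPI. Levels below are normalized counts in the order r1, r2 and r3 unless TPM, the length-corrected unit, is named, and log2 fold changes are P5_EPI over 36h. A lower level in a fraction can come from fewer cells with the transcript or from less RNA per cell, and these cannot be told apart in bulk libraries.

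NMPs are axial progenitors that can give spinal cord and paraxial mesoderm and carry *TBXT* together with *SOX2*. WNT and FGF signals hold them, retinoic acid moves them toward neural fates, and the *HOX* genes turn on in order of paralogue number as the axis lengthens. Pre-neural progenitors are taken here as cells that carry *SOX2*, *NKX1-2* and caudal *HOX* genes without mesodermal genes.

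The 36h libraries stand apart from each other, and among the P5_EPI libraries r1 stands apart from r2 and r3. *SOX2* (ENSG00000181449, chr3:181711924-181714436) was at 12990, 1435 and 267 in 36h, high in r1 only, and at 14800, 11790 and 10160 in P5_EPI. *TBXT* (ENSG00000164458, chr6:166157656-166168700) was at 3290, 27920 and 27660 in 36h, low in r1, while the paraxial mesoderm gene *MSGN1* was at 7.37, 1374 and 5687 and *TBX6* at 263, 1758 and 10400. Over 13214 genes the root mean square log2 distance between 36h libraries was 0.631 to 0.84, between P5_EPI libraries 0.5 (r1 and r2), 0.566 (r1 and r3) and 0.34 (r2 and r3), and from P5_EPI to 36h libraries 1.425 to 1.627. The nearest library to each P5_EPI library was the whole P5 culture of the same replicate (0.296, 0.237 and 0.314). For this spread the main results use all replicates, and changes with 1 replicate left out are given for many genes and lists, though not for all.

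Of 18453 genes tested with edgeR, 608 were called higher in P5_EPI (3.29%) and 850 lower (4.61%), 1458 in all (7.9%), with FDR under 1%, a change of 2-fold or more and 100 or more normalized counts on average. The median log2 fold change of all tested genes was −0.01, and 8627 had an unadjusted p under 0.05. All 1458 moved the same way in the 3 pairs, which was not counted over all tested genes. In 1455 the 2 groups of libraries did not overlap, as in 9850 of all tested genes. The difference was at least 16-fold for 148 of the genes called higher and 226 of those called lower. Protein-coding genes made up 1344 of the calls, 565 higher and 779 lower. The counts of gene lists below stand beside these shares of all genes, 3.29% higher and 4.61% lower, and no list was tested against them. List counts at an unadjusted p under 0.05 stand beside the 8627 of all 18453 genes.

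These counts hang on the replicates kept. Without r1, 1195 genes were called (949 of the 1458 among them), without r3, 1356 (1079 of the 1458), and without r2 edgeR called 0. With r2 left out 6368 genes had an unadjusted p under 0.05 and 666 an FDR under 5%. With all 3 pairs DESeq2 called 2409 genes, 1454 of the 1458 among them. All 1458 kept their direction without r1, r2 or r3, which follows from their having moved the same way in all 3 pairs. They kept an FDR under 5% without r1 or r3 (highest edgeR adjusted p = 0.035). Without r2, 594 of them had an FDR under 5%, and their edgeR adjusted p ran from 0.025 to 0.1. Each call named below is therefore lost at FDR under 1% without r2, and calls that are also lost without r1 or r3 are named where they come up.

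**Figure D1:**
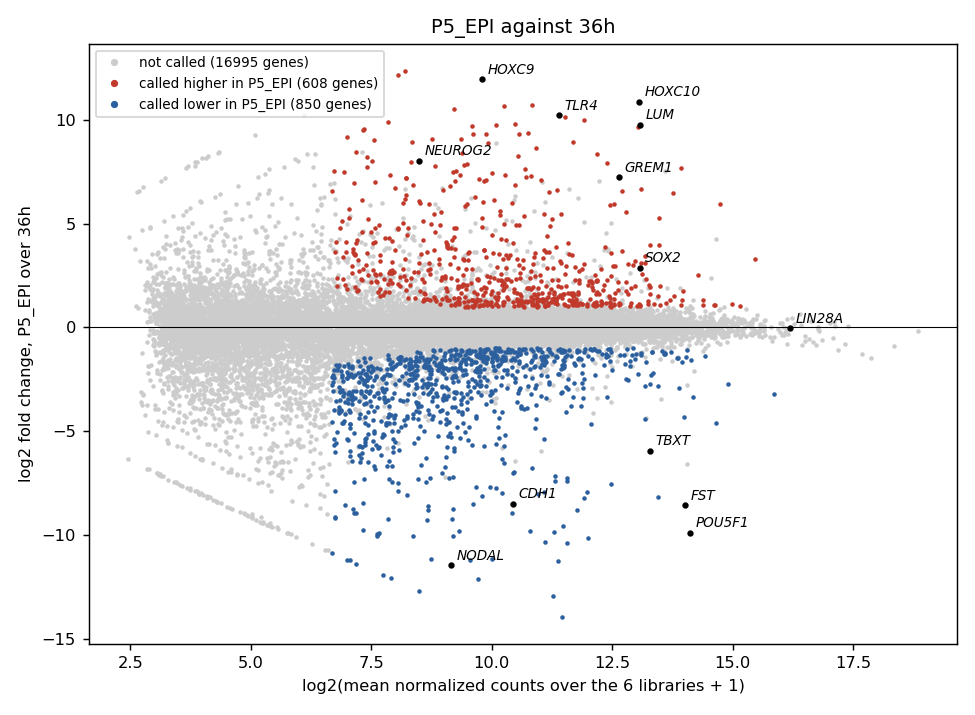
Fold change against mean level for the 18453 genes tested between P5_EPI and 36h, with the 608 genes called higher and the 850 called lower marked.

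The largest falls were among genes that left P5_EPI almost without reads. *PLA2G2A* was at 1352, 293 and 499 in 36h and at 0 in each P5_EPI library, at least 302.5-fold lower (edgeR adjusted p = 0.0037). *NODAL* was at 593, 2783 and 25.8 in 36h and 0.693, 0 and 0 in P5_EPI, a ratio of 4359 with a 95% counting interval of 782.4 to 172200 (edgeR adjusted p = 0.0015). *TACR1* was at 630, 224 and 16.7 in 36h and at 0 in each P5_EPI library, at least 122.8-fold lower (edgeR adjusted p = 0.0062). All 36h libraries lay above all P5_EPI libraries for these genes, though *NODAL* and *TACR1* were far lower in 36h r3 than in the others. Without r1 the call of *TACR1* is lost (edgeR adjusted p = 0.0095, mean below 100). Such floors and intervals cover counting error only.

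Among the other large falls, *NTS* was at 1313, 9119 and 5574 in 36h and 2.77, 1.58 and 0.877 in P5_EPI and fell (log2 fold change −11.25, SE 0.54, edgeR adjusted p = 0.0011). *FOXH1*, at 4003, 5454 and 8582 in 36h and 4.85, 2.38 and 5.26 in P5_EPI, fell (log2 fold change −10.37, SE 0.27, edgeR adjusted p = 0.00041). *RSPO3* was at 506, 6828 and 17130 in 36h, lowest in r1, and at 4.85, 4.75 and 6.14 in P5_EPI, and fell (log2 fold change −10.13, SE 0.79, edgeR adjusted p = 0.0026). No P5_EPI library came near the lowest 36h library for any of the 3.

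The largest rises outside the *HOX* genes, which have their own list, were in genes nearly silent at 36 h. *SLC18A1* was at 0 in each 36h library and 601, 589 and 396 in P5_EPI, at least 164.5-fold higher (edgeR adjusted p = 0.0043). *TLR4* was at 7.37, 3.46 and 2.5 in 36h and 1960, 8746 and 5499 in P5_EPI, high in all 3, and rose (log2 fold change 10.23, SE 0.54, edgeR adjusted p = 0.0013). *DCN* was at 3.68, 1.15 and 3.33 and then 153, 2666 and 2834, and *ALX4* at 2.46, 1.15 and 3.33 and then 1068, 1927 and 1678. The P5_EPI levels of *DCN* and *ALX4* lay above all 36h levels in every library, with r1 the lowest for *DCN*. In P5_MES *DCN* was at 3153, 10200 and 6858 and *ALX4* at 1897, 2789 and 2759, above P5_EPI in each pair. *DCN* rose (log2 fold change 9.31, SE 0.78, edgeR adjusted p = 0.0029) and *ALX4* rose (log2 fold change 9.31, SE 0.32, edgeR adjusted p = 0.00052). *PDX1* was at 0, 0 and 0.833 in 36h and 72.1, 514 and 373 in P5_EPI, lowest in r1 there, a ratio of 921.1 (95% counting interval 165.3 to 36380; edgeR adjusted p = 0.0016). *SLC18A1*, *TLR4* and *PDX1* were lower in P5_MES than in P5_EPI in each pair, but above every 36h library there too.

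Of 20 NMP and primitive streak genes tested of 21, 0 were called higher in P5_EPI and 6 lower, with a median log2 fold change of −2.73 (DESeq2, 1 higher and 11 lower). The counts were 0 higher and 11 lower without r1, and 1 higher and 7 lower without r3. *WNT3A* was at 209, 769 and 2551 in 36h and 3.47, 0.792 and 0.877 in P5_EPI, *FST* at 29400, 41090 and 27740 and 100, 58.6 and 93.9, and *WNT8A* at 2032, 3863 and 12150 and 31.2, 19 and 43. Every 36h library lay above every P5_EPI library for these 3 genes. *WNT3A* fell (log2 fold change −8.77, SE 0.92, edgeR adjusted p = 0.0045), *FST* fell (log2 fold change −8.56, SE 0.37, edgeR adjusted p = 0.0009) and *WNT8A* fell (log2 fold change −7.25, SE 0.50, edgeR adjusted p = 0.002). *CDX1*, at 1677, 5236 and 8308 in 36h and 44.4, 23 and 19.3 in P5_EPI, fell (log2 fold change −7.14, SE 0.80, edgeR adjusted p = 0.0051). *TBXT* was at 228, 210 and 249 in P5_EPI, below every 36h library but above the t0 libraries (16.6, 8.29 and 5.55), and fell (log2 fold change −5.94, SE 0.83, edgeR adjusted p = 0.0083). Without r3 the call of *TBXT* is lost (edgeR adjusted p = 0.014). Summed over the list the level was 1524, 3569 and 3310 TPM in 36h and 443.4, 285.9 and 258.6 TPM in P5_EPI, where *SP5* was the most abundant.

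Other genes of the list were not called. *FGF8* was at 262, 174 and 656 in 36h and 884, 40.4 and 33.3 in P5_EPI (log2 fold change −1.61, SE 1.39, edgeR adjusted p = 0.41), and *FGF17* at 594, 2499 and 14330 and 3211, 660 and 545 (log2 fold change −1.60, SE 1.69, edgeR adjusted p = 0.5). *MIXL1* was at 8612, 57040 and 34600 in 36h, highest in r2, and 928, 143 and 207 in P5_EPI (log2 fold change −6.58, SE 1.39, edgeR adjusted p = 0.024). All P5_EPI libraries had less *MIXL1* than any 36h library, whereas *FGF8* and *FGF17* were higher in P5_EPI r1 than in 36h r1 and lower in the other pairs. *MIXL1* was called lower by DESeq2 (DESeq2 adjusted p = 7.8e-07) and by edgeR without r1 (adjusted p = 0.0011). *FGF17* turned to a log2 fold change of 0.28 without r3.

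For paraxial mesoderm edgeR called 0 of 15 genes tested of 18, with a median log2 fold change of −1.1, 8 at an unadjusted p under 0.05, and DESeq2 called 1 higher and 3 lower. Summed levels were 35.46, 269.4 and 1320 TPM in 36h and 135.1, 153.4 and 120.7 TPM in P5_EPI, so only r2 and r3 were lower in P5_EPI. *PCDH19* was the most abundant in P5_EPI. *TBX6* was at 48.5, 16.6 and 24.6 in P5_EPI (log2 fold change −5.96, SE 1.44, edgeR adjusted p = 0.034) and *MSGN1* at 20.1, 7.92 and 16.7 (log2 fold change −5.80, SE 2.23, edgeR adjusted p = 0.11), and neither was called. All P5_EPI libraries lay below 36h for *TBX6*, and for *MSGN1* below r2 and r3 only. Both were called lower by DESeq2 (*TBX6*, DESeq2 adjusted p = 3.2e-05; *MSGN1*, DESeq2 adjusted p = 0.0027) and by edgeR without r1 (adjusted p = 0.0023 and 0.00059). Without r1 edgeR called 4 of the list lower, and without r3 1 higher.

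Pluripotency genes had the lowest median of any list, with 0 called higher and 13 lower of 17 tested of 20 and a median log2 fold change of −5.4. *POU5F1* (ENSG00000204531, chr6:31164337-31180731) was at 58630, 56820 and 56000 in t0, 47680, 37540 and 20780 in 36h and 43.7, 31.7 and 30.7 in P5_EPI. *VRTN* was at 7782, 7631 and 5536 in 36h and 23.6, 15.1 and 7.9 in P5_EPI, *ESRG* at 40850, 20030 and 5878 and 42.3, 71.3 and 62.3, and *NANOG* at 3957, 1942 and 86.6 and 6.24, 13.5 and 3.51. All P5_EPI libraries lay below all 36h libraries for the 4 genes, though *NANOG* was far lower in 36h r3 than in r1 and r2. *POU5F1* fell (log2 fold change −9.88, SE 0.24, edgeR adjusted p = 0.00035) and *VRTN* fell (log2 fold change −8.80, SE 0.25, edgeR adjusted p = 0.00046). *ESRG* fell (log2 fold change −8.17, SE 0.79, edgeR adjusted p = 0.0039) and *NANOG* fell (log2 fold change −7.69, SE 0.78, edgeR adjusted p = 0.0042). *GDF3* was at 989, 215 and 11.7 in 36h and 0, 0 and 0.877 in P5_EPI, a ratio of 1557 (95% counting interval 279.4 to 61490; edgeR adjusted p = 0.0067), and its call is lost without r1 (edgeR adjusted p = 0.02). *DPPA4*, at 26360, 18520 and 8138 in 36h and 858, 406 and 1136 in P5_EPI, fell (log2 fold change −4.43, SE 0.62, edgeR adjusted p = 0.0083), and is also lost without r1 (edgeR adjusted p = 0.02). Summed levels were 4135, 2871 and 1485 TPM in 36h and 337.1, 334.7 and 317 TPM in P5_EPI, where *L1TD1* was the most abundant.

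Pre-neural genes gave 5 called higher and 0 lower of 19 tested of 20, with a median log2 fold change of 2.32. DESeq2 called 8 higher and 2 lower, and edgeR without r3 5 higher and 2 lower. *NEUROG2* was at 9.82, 0 and 0 in 36h and 1728, 164 and 246 in P5_EPI, *HHIP* at 29.5, 5.77 and 17.5 and 4255, 2860 and 2699, and *LIX1* at 438, 57.7 and 858 and 30160, 28030 and 24110. *NCAM1* was at 876, 323 and 854 and 8815, 3929 and 2964, and *SALL3* at 6845, 5889 and 4622 and 14770, 14010 and 12200. All P5_EPI libraries lay above all 36h libraries for the 5 genes. *NEUROG2* rose (log2 fold change 8.04, SE 0.56, edgeR adjusted p = 0.002), *HHIP* rose (log2 fold change 7.62, SE 0.35, edgeR adjusted p = 0.00099) and *LIX1* rose (log2 fold change 6.46, SE 0.93, edgeR adjusted p = 0.009). *NCAM1* rose (log2 fold change 2.94, SE 0.40, edgeR adjusted p = 0.0079) and *SALL3* rose (log2 fold change 1.28, SE 0.10, edgeR adjusted p = 0.0025). Without r1 the calls of *LIX1* (edgeR adjusted p = 0.02) and *NCAM1* (edgeR adjusted p = 0.019) are lost. Summed levels were 889.4, 737.2 and 599.3 TPM in 36h and 1720, 1647 and 1449 TPM in P5_EPI.

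Several defining genes of this list were not called. *SOX2* in 36h r1 lay within the range of P5_EPI, and only r2 and r3 were lower (log2 fold change 2.88, SE 1.11, edgeR adjusted p = 0.1). *NKX1-2* was at 9559, 15280 and 3401 in 36h and 1399, 3149 and 2028 in P5_EPI, lower at passage 5 in every pair (log2 fold change −1.92, SE 0.42, edgeR adjusted p = 0.026), and was called lower by DESeq2 (adjusted p = 4.2e-06) and by edgeR without r3 (log2 fold change −2.49, edgeR adjusted p = 0.0017). *POU3F2* was at 413, 21.9 and 35.8 and 2973, 1362 and 1647 (log2 fold change 4.67, SE 0.72, edgeR adjusted p = 0.011), and *FGFR2* at 2703, 578 and 312 and 5296, 3921 and 2686 (log2 fold change 2.32, SE 0.46, edgeR adjusted p = 0.021). For *POU3F2* every P5_EPI library lay above 36h, whereas *FGFR2* in 36h r1 reached the P5_EPI range. Both were called higher by DESeq2 (*POU3F2*, DESeq2 adjusted p = 1.2e-07; *FGFR2*, DESeq2 adjusted p = 1.3e-07) and by edgeR without r1 (adjusted p = 0.00074 and 0.0013). *CDH2*, at 12130, 24990 and 31760 in 36h and 25930, 29580 and 22720 in P5_EPI, overlapped between the groups (log2 fold change 0.32, SE 0.31, edgeR adjusted p = 0.47). *GBX2* was at 2024, 2833 and 2451 in 36h, 2596, 3985 and 2722 in P5_EPI and 876, 1992 and 549 in P5_MES, again with overlap of 36h and P5_EPI (log2 fold change 0.37, SE 0.10, edgeR adjusted p = 0.051).

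Genes of neural progenitors and neurons gave no call by edgeR among 15 tested of 23, with a median log2 fold change of 1.05, 8 at an unadjusted p under 0.05, and DESeq2 called 1 higher and 2 lower (edgeR without r3, 1 higher). *PAX6* was at 46.7, 102 and 23 in t0, 281, 2.31 and 3.33 in 36h and 29.8, 0.792 and 0.877 in P5_EPI, high only in 36h r1, and had too few counts to be tested. *SOX1* was at 74.9, 0 and 0 in 36h and 130, 8.71 and 4.39 in P5_EPI (log2 fold change 1.81, SE 0.86, edgeR adjusted p = 0.16), and *IRX3* at 66.3, 39.2 and 116 and 337, 41.2 and 56.1 (log2 fold change 0.47, SE 0.74, edgeR adjusted p = 0.65). *IRX3* turned to a log2 fold change of −0.47 without r1. Summed levels of the list were 234.9, 207.7 and 227.3 TPM in 36h and 315.5, 218.1 and 201.6 TPM in P5_EPI, overlapping, with *TUBB3* the most abundant. For the label of neural progenitors, 5 of 19 pre-neural genes (DESeq2 8 higher and 2 lower) and 0 of 15 of this list (DESeq2 1 higher and 2 lower) were called higher than in 36h, beside 3.29% of all genes. Against P5_MES at FDR under 5%, 8 pre-neural genes were higher and 2 lower, and of this list 0 were higher and 1 lower. There *NKX1-2* was on the EPI side (log2 difference 1.71, SE 0.24, edgeR adjusted p = 0.015).

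**Figure D2:**
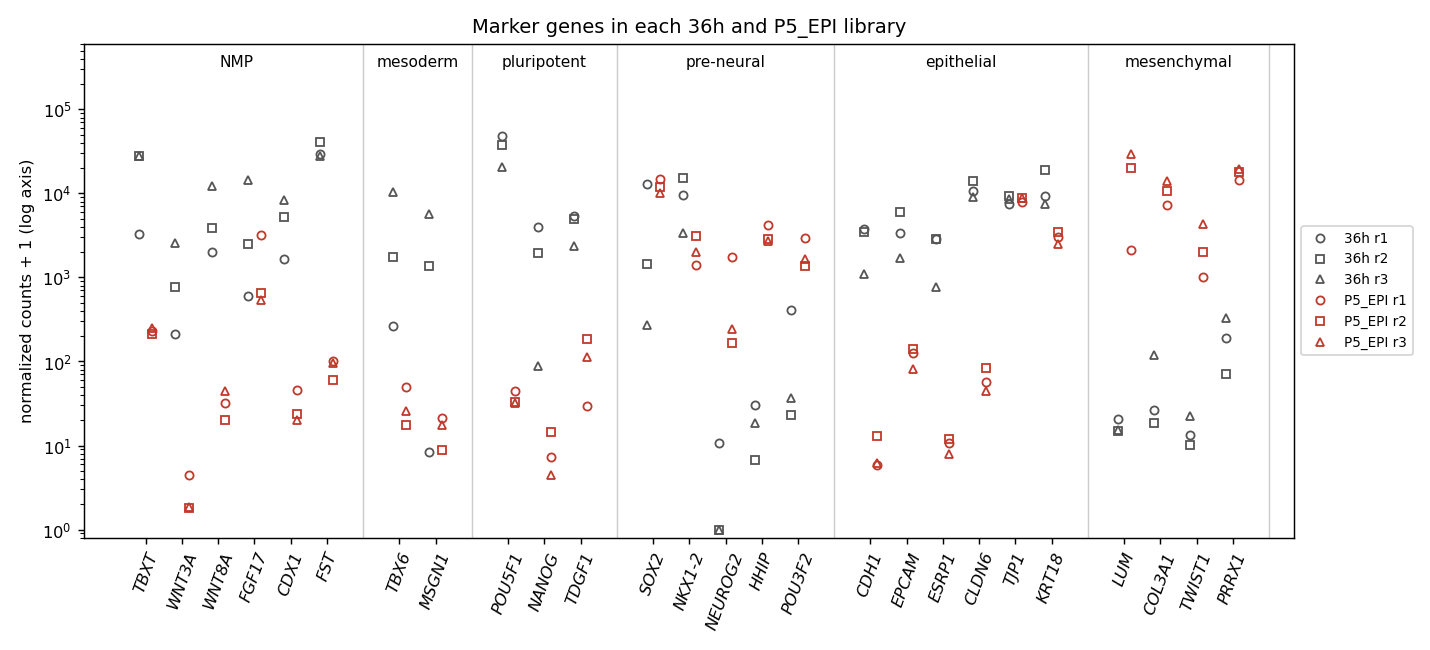
Normalized counts of marker genes in each 36h and P5_EPI library, with SOX2 at 12990, 1435 and 267 in 36h.

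*HOX* genes showed the largest median shift of any list, with 18 of 39 tested called higher, 0 lower and a median log2 fold change of 7.02 (DESeq2, 31 higher and 1 lower). Without r3 edgeR called 29 of them higher. Their summed level was 4.63, 3.36 and 2.66 TPM in t0, 79.17, 211.2 and 694.2 TPM in 36h and 3797, 4303 and 3337 TPM in P5_EPI. At least 10 counts were reached by 10, 14 and 24 *HOX* genes in 36h and by all 39 in each P5_EPI library. Weighted by level, the mean paralogue number was 1.44, 1.33 and 2.07 in 36h and 6.84, 7.54 and 7.29 in P5_EPI. Paralogues 1 to 4 made up 94.7%, 97.3% and 91.2% of *HOX* transcripts in 36h and 26.1%, 20.2% and 19.7% in P5_EPI, where paralogues 5 to 9 made up 54%, 47.1% and 52.4%. Paralogues 12 and 13 were at 0.2%, 4.6% and 1.1% in P5_EPI and at 6.4%, 19.7% and 19.7% in P8_EPI.

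Grouped by paralogue number, a split chosen after the data were seen, 1 of 12 genes of HOX1 to HOX4 was called higher (median log2 fold change 4.15) and 9 of 15 of HOX5 to HOX9 (7.80). All 6 of HOX10 and HOX11 were called higher (10.60), and 2 of 6 of HOX12 and HOX13 (6.77). Without r3 the first 2 counts were 5 of 12 and 15 of 15, as with DESeq2, and the last was 3 without r3, 4 without r1 and 5 with DESeq2. Calls came to 5 of 11 in cluster A, 1 of 10 in B, 5 of 9 in C and 7 of 9 in D. Without r1 they came to 5, 0, 7 and 7, without r3 to 8, 6, 7 and 8, and with DESeq2 to 8, 5, 9 and 9, so the count of cluster B depends on the replicates and the tool.

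*HOXC10* (ENSG00000180818, chr12:53985065-53990279) was at 11.1, 10.4 and 6.66 in 36h and 15910, 18810 and 16180 in P5_EPI, *HOXC8* at 2.46, 3.46 and 3.33 and 2772, 3149 and 2602, and *HOXC6* at 14.7, 17.3 and 30 and 16480, 18410 and 15550. *HOXB6* was at 2.46, 2.31 and 45 in 36h, highest in r3, and 2172, 1833 and 1444 in P5_EPI. For these 4 genes the P5_EPI libraries were high in all replicates and above 36h. *HOXC10* rose (log2 fold change 10.87, SE 0.19, edgeR adjusted p = 0.00024) and *HOXC8* rose (log2 fold change 9.80, SE 0.18, edgeR adjusted p = 0.00026). *HOXC6* rose (log2 fold change 9.67, SE 0.30, edgeR adjusted p = 0.00047) and *HOXB6* rose (log2 fold change 7.07, SE 0.99, edgeR adjusted p = 0.0085), the last lost without r1 (edgeR adjusted p = 0.013). *HOXC9* was at 0, 0 and 0.833 in 36h and 1598, 1996 and 1759 in P5_EPI, a ratio of 5141 (95% counting interval 922.7 to 203000). *HOXD11* was at 1.23, 0 and 2.5 and 916, 3956 and 2398 (ratio 1745, 681.7 to 6406), and *HOXC11* at 0, 1.15 and 0.833 and 483, 2180 and 909 (ratio 1715, 474.9 to 14160).

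Uncalled *HOX* genes included *HOXB9*, at 35.6, 54.2 and 1125 in 36h and 28220, 25040 and 19670 in P5_EPI, high in every P5_EPI library (log2 fold change 7.55, SE 1.44, edgeR adjusted p = 0.018). *HOXC12* was at 6.14, 1.15 and 1.67 and 18, 5866 and 628 (log2 fold change 8.88, SE 1.62, edgeR adjusted p = 0.017) and *HOXC13* at 3.68, 1.15 and 5 and 61.7, 1456 and 237 (log2 fold change 6.67, SE 1.05, edgeR adjusted p = 0.011), both lowest in r1 of P5_EPI. DESeq2 called all 3 higher (*HOXB9*, DESeq2 adjusted p = 6.9e-09; *HOXC12*, DESeq2 adjusted p = 0.00012; *HOXC13*, DESeq2 adjusted p = 3.1e-05), as did edgeR for *HOXB9* without r3 (adjusted p = 0.00027) and for *HOXC12* and *HOXC13* without r1 (adjusted p = 0.0011 and 0.0085). *HOXB1* was at 262, 822 and 8368 in 36h and 435, 79.2 and 154 in P5_EPI, lower in r2 and r3 only (log2 fold change −2.95, SE 1.53, edgeR adjusted p = 0.2). Of 12 *HOX* cofactors and CDX genes tested, 1 was called higher and 2 lower, with a median log2 fold change of 0. *MEIS1*, at 51.6, 10.4 and 75.8 in 36h and 263, 139 and 420 in P5_EPI, rose (log2 fold change 2.80, SE 0.36, edgeR adjusted p = 0.0069), and its call is lost without r1 (edgeR adjusted p = 0.013) or r3 (edgeR adjusted p = 0.013). *MEIS3*, at 7102, 6450 and 1640 in 36h and 625, 597 and 268 in P5_EPI, fell (log2 fold change −3.16, SE 0.22, edgeR adjusted p = 0.002). *CDX2* was at 976, 5781 and 8374 in 36h, lowest in r1, and 18240, 13410 and 11350 in P5_EPI, and was not called (log2 fold change 1.88, SE 0.81, edgeR adjusted p = 0.14).

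**Figure D3:**
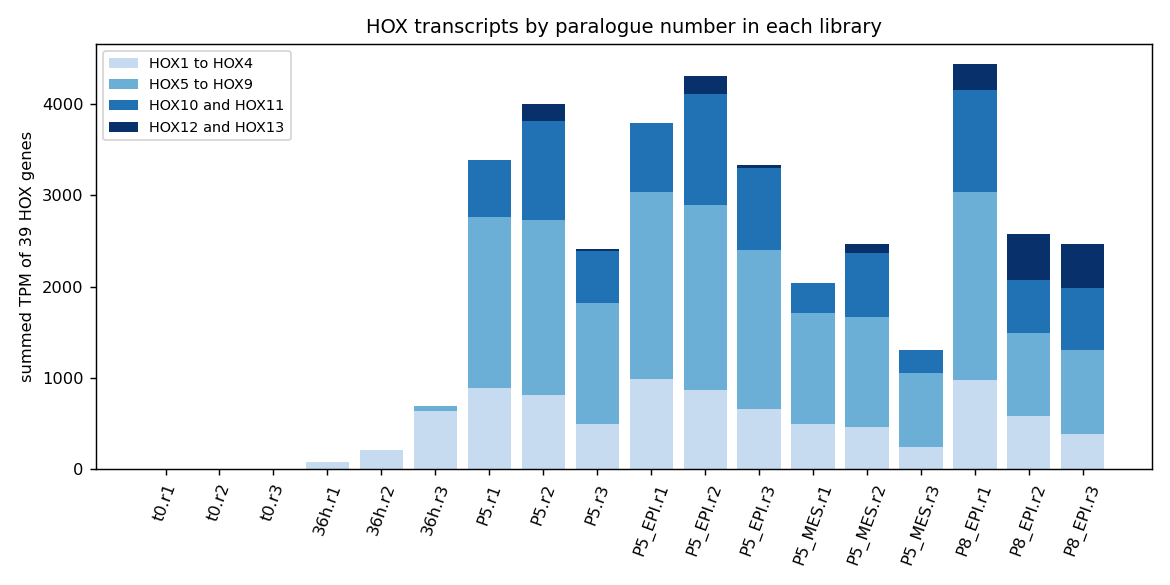
Summed TPM of 39 HOX genes by paralogue number in each library, with totals of 79.17, 211.2 and 694.2 in 36h and 3797, 4303 and 3337 in P5_EPI.

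Epithelial markers were mostly below their 36h level in the fraction labelled epithelial, though with a summed level above that of the MES fraction. Of 22 tested of 25, 1 was called higher than in 36h and 13 lower, with a median log2 fold change of −4.53 (DESeq2, 2 higher and 14 lower), while against P5_MES 4 were higher and 0 lower at FDR under 5%. *CDH1* (ENSG00000039068, chr16:68737225-68835548) was at 14230, 15590 and 11260 in t0, 3814, 3436 and 1110 in 36h and 4.85, 11.9 and 5.26 in P5_EPI. *ESRP1* was at 2827, 2898 and 760 in 36h and 9.71, 11.1 and 7.02 in P5_EPI, *CLDN6* at 10780, 14130 and 8980 and 55.5, 82.4 and 43.9, and *RAB25* at 700, 456 and 191 and 4.85, 5.54 and 1.75. All 36h libraries lay above all P5_EPI libraries for the 4 genes. *CDH1* fell (log2 fold change −8.50, SE 0.38, edgeR adjusted p = 0.00096) and *ESRP1* fell (log2 fold change −7.73, SE 0.33, edgeR adjusted p = 0.00085). *CLDN6* fell (log2 fold change −7.53, SE 0.12, edgeR adjusted p = 0.00024) and *RAB25* fell (log2 fold change −6.70, SE 0.32, edgeR adjusted p = 0.0011). *EPCAM*, at 3352, 6032 and 1703 in 36h and 126, 141 and 80.7 in P5_EPI, fell (log2 fold change −4.83, SE 0.25, edgeR adjusted p = 0.0013).

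*KRT8* was at 10850, 25590 and 12550 in 36h and 2285, 2371 and 1787 in P5_EPI, and *KRT18* at 9232, 19210 and 7486 and 3004, 3487 and 2467, low in every P5_EPI library but far from absent. *KRT8* fell (log2 fold change −2.80, SE 0.25, edgeR adjusted p = 0.0034) and *KRT18* fell (log2 fold change −1.86, SE 0.21, edgeR adjusted p = 0.0051). *PROM1*, at 1733, 2492 and 1430 in 36h and 8709, 9677 and 8240 in P5_EPI, rose (log2 fold change 2.30, SE 0.14, edgeR adjusted p = 0.0017). *TJP1* was at 7539, 9429 and 8593 and 7986, 8919 and 8872, overlapping (log2 fold change 0.05, SE 0.09, edgeR adjusted p = 0.7). Summed levels of the list were 1598, 2280 and 1200 TPM in 36h, 438.5, 573.1 and 434.4 TPM in P5_EPI and 312.9, 386.8 and 185.2 TPM in P5_MES, with *KRT8* the most abundant in 36h, *PROM1* in P5_EPI and *TJP1* in P5_MES. In every pair P5_EPI lay below 36h and above P5_MES. Whether the cells had epithelial form was not measured here.

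The E-box CAGGTG or CACCTG, a motif chosen after the data were seen, lay in 20.6% of 27305 promoters with a sequence, 14.6% of 438 of genes called higher and 27.2% of 595 of genes called lower (18.4% of 12007 tested genes). Of the 25 epithelial genes 13 had a promoter sequence, 7 of them with the motif. Of the genes called lower 5 had a promoter sequence and 2 of these the motif (40%), *CLDN6* once and *RAB25* 2 times, and of the rest of the list 5 of 8 (62.5%), a difference that was not tested. *TJP1*, not called, had it once, *PROM1*, called higher, 2 times and *CRB3*, not tested, 5 times. The promoters of *CLDN6*, *RAB25* and *TJP1* (RefSeq GRCh38.p14; *CLDN6* chr16:3018134-3018433, minus strand; *RAB25* chr1:156060910-156061209, plus strand; *TJP1* chr15:29969000-29969299, minus strand) are printed below with the motif in capitals, and binding was not tested.

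CLDN6: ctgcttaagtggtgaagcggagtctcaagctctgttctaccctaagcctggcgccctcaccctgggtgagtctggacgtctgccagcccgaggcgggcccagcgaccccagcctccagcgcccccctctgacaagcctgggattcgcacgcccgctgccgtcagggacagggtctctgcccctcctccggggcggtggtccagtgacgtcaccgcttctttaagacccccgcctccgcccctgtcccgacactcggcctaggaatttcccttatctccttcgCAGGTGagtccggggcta

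RAB25: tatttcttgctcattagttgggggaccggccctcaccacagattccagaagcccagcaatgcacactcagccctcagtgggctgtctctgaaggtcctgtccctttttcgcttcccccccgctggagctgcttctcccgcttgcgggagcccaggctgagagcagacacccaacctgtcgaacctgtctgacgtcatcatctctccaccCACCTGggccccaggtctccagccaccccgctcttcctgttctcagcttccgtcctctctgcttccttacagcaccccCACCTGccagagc

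TJP1: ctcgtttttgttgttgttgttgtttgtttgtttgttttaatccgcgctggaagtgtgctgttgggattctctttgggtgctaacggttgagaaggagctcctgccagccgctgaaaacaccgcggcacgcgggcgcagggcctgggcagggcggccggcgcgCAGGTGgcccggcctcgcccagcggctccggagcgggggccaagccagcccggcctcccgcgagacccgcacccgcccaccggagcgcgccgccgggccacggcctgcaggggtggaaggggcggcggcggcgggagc

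Genes of the mesenchyme were present in P5_EPI. Of 18 EMT and mesenchymal genes tested of 18, 6 were called higher and 1 lower, with a median log2 fold change of 1.68 (DESeq2, 9 higher and 2 lower). Against P5_MES at FDR under 5%, however, 0 genes of the list were higher in P5_EPI and 8 were lower. *LUM* (ENSG00000139329, chr12:91102629-91111831) was at 19.6, 13.8 and 14.2 in 36h, 2109, 19860 and 29680 in P5_EPI and 37630, 83800 and 79530 in P5_MES. *COL3A1* was at 25.8, 17.3 and 118 in 36h and 7327, 10660 and 13890 in P5_EPI, *TWIST1* at 12.3, 9.23 and 21.7 and 1017, 1995 and 4361, and *PRRX1* at 189, 70.4 and 330 and 14480, 17770 and 19660. P5_EPI lay above 36h in every library for all 4 genes, and P5_EPI r1 had the least *LUM* of its group. *LUM* rose (log2 fold change 9.76, SE 0.94, edgeR adjusted p = 0.0038) and *COL3A1* rose (log2 fold change 7.92, SE 0.52, edgeR adjusted p = 0.0018). *TWIST1* rose (log2 fold change 7.35, SE 0.32, edgeR adjusted p = 0.0009) and *PRRX1* rose (log2 fold change 6.67, SE 0.50, edgeR adjusted p = 0.0024). *THY1*, at 4151, 8244 and 5507 in 36h and 1299, 1778 and 1755 in P5_EPI, fell (log2 fold change −1.81, SE 0.15, edgeR adjusted p = 0.0028).

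*VIM* was at 28250, 28400 and 64280 in 36h and 43980, 33480 and 34660 in P5_EPI (log2 fold change 0.03, SE 0.31, edgeR adjusted p = 0.94), *SNAI2* at 115, 641 and 3458 and 1146, 1805 and 2270 (log2 fold change 1.38, SE 0.79, edgeR adjusted p = 0.23), and *COL1A2* at 5983, 8651 and 16660 and 2476, 10970 and 18920 (log2 fold change −0.21, SE 0.34, edgeR adjusted p = 0.67). The groups overlapped for all 3, and none was called. *VIM* turned to a log2 fold change of −0.28 without r1 and *COL1A2* to 0.31. Summed levels of the list were 1007, 1074 and 2387 TPM in 36h, 2232, 3130 and 3919 TPM in P5_EPI and 6604, 7224 and 6954 TPM in P5_MES, with *VIM* the most abundant in P5_EPI and *LUM* in P5_MES. Whether cells of the MES fraction remain in P5_EPI or its own cells carry these genes was not tested.

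Neural crest genes gave 4 called higher and 1 lower of 18 tested of 19, with a median log2 fold change of 1.99 (DESeq2, 8 higher and 1 lower). Against P5_MES at FDR under 5%, however, 1 gene of the list was higher in P5_EPI and 8 were lower. *TFAP2A* was at 4.91, 3.46 and 8.33 in 36h and 110, 960 and 2449 in P5_EPI, *PAX3* at 227, 55.4 and 126 and 7324, 4687 and 4195, and *MITF* at 17.2, 36.9 and 45.8 and 1424, 702 and 481. *SOX5* was at 259, 82 and 102 and 1524, 1701 and 1786, and *ERBB3* at 2271, 2290 and 1635 and 366, 592 and 491. The groups did not overlap for any of the 5, with *ERBB3* alone lower in P5_EPI. *TFAP2A* rose (log2 fold change 7.49, SE 0.71, edgeR adjusted p = 0.0037) and *PAX3* rose (log2 fold change 5.47, SE 0.34, edgeR adjusted p = 0.0017). *MITF* rose (log2 fold change 4.58, SE 0.64, edgeR adjusted p = 0.0083), *SOX5* rose (log2 fold change 3.71, SE 0.42, edgeR adjusted p = 0.0053) and *ERBB3* fell (log2 fold change −2.07, SE 0.21, edgeR adjusted p = 0.0041). *SOX10* was at 104, 36.9 and 14.2 in 36h, 29.1, 47.5 and 140 in P5_EPI and 196, 413 and 1419 in P5_MES, and its change from 36h was not called (log2 fold change 0.55, SE 1.09, edgeR adjusted p = 0.72). *SOX9* was at 1475, 1533 and 857 and 834, 1701 and 2809 (log2 fold change 0.37, SE 0.50, edgeR adjusted p = 0.61), *FOXD3* at 33.2, 12.7 and 0 and 86, 61.8 and 86.8 (log2 fold change 2.86, SE 1.07, edgeR adjusted p = 0.098), and *TFAP2B* at 19.6, 0 and 0 and 80.4, 256 and 285 (log2 fold change 5.45, SE 1.61, edgeR adjusted p = 0.056). *TFAP2B* was called higher by DESeq2 (DESeq2 adjusted p = 0.002) and by edgeR without r1 (adjusted p = 0.0048). Without r3 *SOX10* turned to a log2 fold change of −0.72 and *SOX9* to −0.30. Summed levels were 84.14, 129.1 and 273.9 TPM in 36h, 570.3, 434.7 and 654.3 TPM in P5_EPI, where *MSX1* was the most abundant, and 725.4, 813.6 and 1038 TPM in P5_MES.

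Lists of other lineages summed to at most 33.62 TPM in any P5_EPI library, though surface ectoderm in every pair and endoderm in r1 were above 36h. Of 7 endoderm genes tested of 12, 0 were called higher and 2 lower (median log2 fold change −3.62; without r1 0 higher and 3 lower, without r3 1 higher and 3 lower), and 8 of the 12 were at the floor in P5_EPI. Their sum was 25.41, 37.03 and 159.5 TPM in 36h and 27.96, 33.62 and 25.86 TPM in P5_EPI, mostly *CXCR4*. *GATA4* was at 38.1, 382 and 773 in 36h and 0, 0 and 0.877 in P5_EPI, a ratio of 1529 (95% counting interval 274.4 to 60390), and *FOXA3*, at 548, 474 and 430 in 36h and 1.39, 3.96 and 2.63 in P5_EPI, fell (log2 fold change −7.45, SE 0.41, edgeR adjusted p = 0.0014). Of 4 genes of lateral plate, endothelium and blood tested of 14, 0 were called higher and 2 lower (median log2 fold change −0.87), and their sum was 77.3, 70.53 and 42.07 TPM in 36h and 2.23, 2.83 and 4.93 TPM in P5_EPI, with *KDR* the most abundant in 36h and *HBE1* in P5_EPI. *KDR*, at 9311, 9088 and 4637 in 36h and 22.2, 22.2 and 28.1 in P5_EPI, fell (log2 fold change −8.23, SE 0.35, edgeR adjusted p = 0.00085), and *TEK*, at 295, 941 and 376 in 36h and 65.2, 125 and 63.2 in P5_EPI, fell (log2 fold change −2.52, SE 0.24, edgeR adjusted p = 0.0037). For *GATA4*, *FOXA3*, *KDR* and *TEK* every P5_EPI library lay below every 36h library. For surface ectoderm edgeR called 0 of 3 tested of 8 (2 at an unadjusted p under 0.05; DESeq2 1 higher and 0 lower; edgeR without r1 or r3 1 higher), with a median log2 fold change of 2.78, and the sum was 9.2, 4.58 and 3.01 TPM in 36h and 23.3, 27.61 and 18.38 TPM in P5_EPI, mostly *TFAP2C*.

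**Figure D4:**
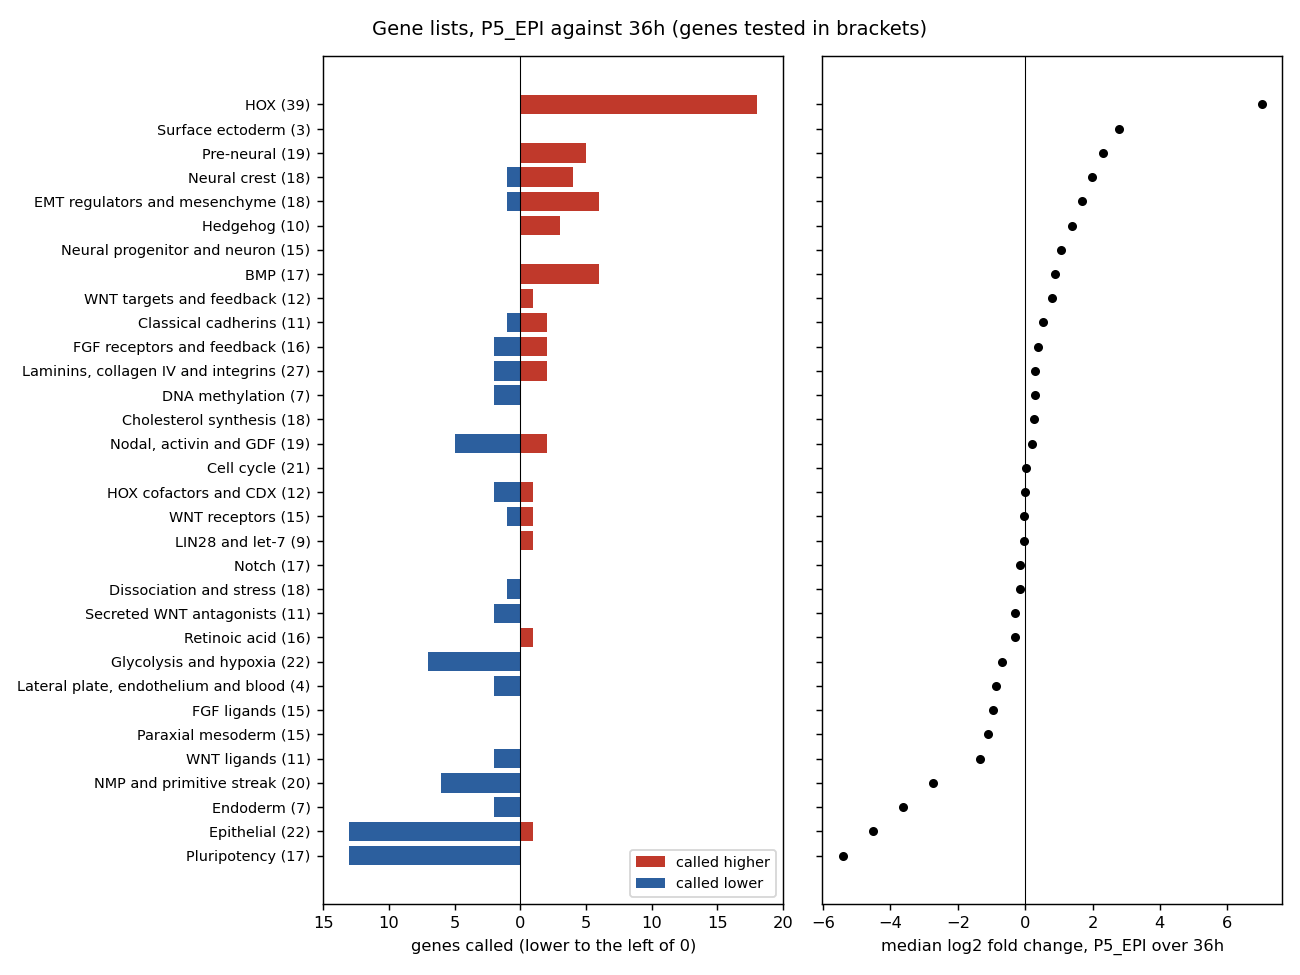
Genes called in each of the 32 gene lists and the median log2 fold change of each list, from 7.02 for HOX to −5.4 for pluripotency.

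Both groups were kept with a WNT agonist. Of 11 WNT ligands tested of 19, 0 were called higher and 2 lower, *WNT3A* and *WNT8A* above, with a median log2 fold change of −1.35 (DESeq2, 1 higher and 4 lower; without r1, 0 higher and 3 lower; without r3, 1 higher and 2 lower). *WNT5A* was at 334, 2692 and 15950 in 36h and 42250, 55600 and 37190 in P5_EPI (log2 fold change 4.25, SE 1.31, edgeR adjusted p = 0.063), and *WNT5B* at 4138, 9785 and 17960 and 938, 551 and 787 (log2 fold change −3.60, SE 0.54, edgeR adjusted p = 0.01), neither called. *WNT5A* was called higher by DESeq2 (DESeq2 adjusted p = 0.00022) and by edgeR without r3 (adjusted p = 0.0072), and *WNT5B* lower by DESeq2 (DESeq2 adjusted p = 7.6e-07) and by edgeR without r1 (adjusted p = 0.00059). Of 15 WNT receptor genes tested, 1 was called higher and 1 lower (median −0.03), beside 3.29% and 4.61% of all genes. *FZD1*, at 706, 456 and 526 in 36h and 3729, 4980 and 3252 in P5_EPI, rose (log2 fold change 2.85, SE 0.23, edgeR adjusted p = 0.0028). *FZD4*, at 777, 1509 and 1690 in 36h and 295, 334 and 276 in P5_EPI, fell (log2 fold change −2.03, SE 0.27, edgeR adjusted p = 0.0075), and its call is lost without r3 (edgeR adjusted p = 0.012).

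Of 12 WNT target and feedback genes tested, 1 was called higher and 0 lower, with a median log2 fold change of 0.79. DESeq2 called 5 higher and 1 lower, and edgeR without r1 1 higher and 2 lower. *NKD2*, at 359, 282 and 528 in 36h and 1037, 1612 and 1655 in P5_EPI, rose (log2 fold change 1.93, SE 0.24, edgeR adjusted p = 0.0062). *AXIN2* was at 4874, 8052 and 5406 in 36h and 21660, 11780 and 14690 in P5_EPI (log2 fold change 1.41, SE 0.32, edgeR adjusted p = 0.029) and *SP5* at 6775, 10680 and 10040 and 5445, 2088 and 2141 (log2 fold change −1.62, SE 0.46, edgeR adjusted p = 0.05), and both were present in every P5_EPI library. *AXIN2* was called higher by DESeq2 (DESeq2 adjusted p = 2.4e-05), and *SP5* lower by DESeq2 (DESeq2 adjusted p = 0.00028) and by edgeR without r1 (adjusted p = 0.0013). Of 11 secreted WNT antagonists tested of 12, 0 were called higher and 2 lower, with a median of −0.29 (without r1, 0 higher and 3 lower; without r3, 1 higher and 2 lower). *DKK4*, at 51.6, 430 and 417 in 36h and 1.39, 6.34 and 7.9 in P5_EPI, fell (log2 fold change −5.71, SE 0.33, edgeR adjusted p = 0.0015), and *SFRP2*, at 12590, 7693 and 4195 in 36h and 3118, 1904 and 1527 in P5_EPI, fell (log2 fold change −1.80, SE 0.15, edgeR adjusted p = 0.0028). All P5_EPI libraries lay below 36h for both.

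Among 15 FGF ligands tested of 19 edgeR called 0 (6 at an unadjusted p under 0.05; DESeq2 2 higher and 4 lower), with a median log2 fold change of −0.95. The counts were 0 higher and 2 lower without r1, and 1 higher and 2 lower without r3. Of 16 FGF receptor and feedback genes tested, 2 were called higher and 2 lower, with a median of 0.39 (5 higher without r1, and 6 higher and 2 lower with DESeq2). *DUSP6* was at 3759, 8636 and 5519 in 36h and 13260, 20090 and 15370 in P5_EPI, and *ETV5* at 3155, 2815 and 3209 and 6391, 5960 and 6432. *FGFR3* was at 1173, 552 and 1193 and 171, 91.9 and 99.1, and *FGFR4* at 2299, 2089 and 2426 and 332, 293 and 248. No gene of the 4 overlapped between the groups. *DUSP6* rose (log2 fold change 1.54, SE 0.14, edgeR adjusted p = 0.0036) and *ETV5* rose (log2 fold change 1.07, SE 0.08, edgeR adjusted p = 0.0025). *FGFR3* fell (log2 fold change −2.95, SE 0.26, edgeR adjusted p = 0.0031) and *FGFR4* fell (log2 fold change −2.94, SE 0.16, edgeR adjusted p = 0.0013).

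Nodal, activin and GDF genes split, with 2 called higher and 5 lower of 19 tested of 21 and a median log2 fold change of 0.20 (without r1, 3 lower). *TGFB2* was at 6.14, 16.2 and 7.5 in 36h and 4410, 4168 and 3001 in P5_EPI, and *GDF11* at 1964, 1426 and 1346 and 11860, 14340 and 12320. *TDGF1* was at 5419, 5003 and 2350 and 28.4, 182 and 113, and *TGFB1* at 1097, 2296 and 823 and 199, 208 and 218. *TGFB2* and *GDF11* were high in every P5_EPI library, and *TDGF1* and *TGFB1* low. *TGFB2* rose (log2 fold change 8.62, SE 0.29, edgeR adjusted p = 0.00047) and *GDF11* rose (log2 fold change 3.07, SE 0.18, edgeR adjusted p = 0.0015). *TDGF1* fell (log2 fold change −5.40, SE 0.72, edgeR adjusted p = 0.0076) and *TGFB1* fell (log2 fold change −2.58, SE 0.34, edgeR adjusted p = 0.0072), the last lost without r1 (edgeR adjusted p = 0.016).

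BMP genes gave 6 called higher and 0 lower of 17 tested, with a median log2 fold change of 0.89. Without r1 edgeR called 6 higher and 2 lower, and DESeq2 with all pairs 8 and 1. *GREM1* was at 73.7, 71.6 and 113 in 36h and 11910, 11970 and 14080 in P5_EPI, *BMP6* at 29.5, 15 and 47.5 and 2192, 2097 and 1925, and *NOG* at 39.3, 23.1 and 70 and 2055, 2997 and 2985. *BMP4* was at 194, 314 and 472 and 2256, 5875 and 9273, all 4 higher in every P5_EPI library than in 36h. In P5_MES, however, *BMP4* was at 20060, 16260 and 19200, above every P5_EPI library (log2 difference −1.88, SE 0.43, edgeR adjusted p = 0.04). *GREM1* rose (log2 fold change 7.25, SE 0.15, edgeR adjusted p = 0.00026) and *BMP6* rose (log2 fold change 6.15, SE 0.39, edgeR adjusted p = 0.0018). *NOG* rose (log2 fold change 6.00, SE 0.37, edgeR adjusted p = 0.0016) and *BMP4* rose (log2 fold change 4.06, SE 0.19, edgeR adjusted p = 0.0011). *ID4*, at 170, 254 and 144 in 36h and 816, 1963 and 1297 in P5_EPI, rose (log2 fold change 2.83, SE 0.23, edgeR adjusted p = 0.0026). *BMPR1B*, at 87.2, 138 and 87.5 in 36h and 459, 417 and 602 in P5_EPI, rose (log2 fold change 2.29, SE 0.30, edgeR adjusted p = 0.0074), and its call is lost without r1 (edgeR adjusted p = 0.019) or r3 (edgeR adjusted p = 0.015).

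With the inverse agonist of the retinoic acid receptors in both groups, 1 of 16 retinoic acid genes tested of 18 was called higher and 0 lower (median log2 fold change −0.29), 3 higher without r1, and 4 higher and 1 lower with DESeq2. *RARG*, at 1751, 1788 and 1789 in 36h and 3781, 4485 and 4988 in P5_EPI, rose (log2 fold change 1.34, SE 0.11, edgeR adjusted p = 0.0027). Hedgehog genes gave 3 called higher and 0 lower of 10 tested of 13, with a median of 1.38 (DESeq2, 7 higher and 1 lower). *PTCH1* was at 1611, 1406 and 2175 in 36h and 19040, 11280 and 11070 in P5_EPI, and *GLI3* at 2978, 773 and 1097 and 11990, 9468 and 9626, both high in all P5_EPI libraries, with *HHIP* as above. *PTCH1* rose (log2 fold change 3.00, SE 0.26, edgeR adjusted p = 0.0031) and *GLI3* rose (log2 fold change 2.95, SE 0.34, edgeR adjusted p = 0.0054). Among 17 Notch genes tested of 19 edgeR called 0 (10 at an unadjusted p under 0.05; DESeq2 3 higher and 3 lower; edgeR without r1 1 higher and 1 lower), with a median of −0.14.

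*LIN28A* was at 79850, 84750 and 65480 in 36h and 77890, 72940 and 69300 in P5_EPI, overlapping (log2 fold change −0.03, SE 0.10, edgeR adjusted p = 0.86), and *LIN28B* at 9097, 11950 and 14240 and 9105, 10640 and 13580 (log2 fold change −0.05, SE 0.09, edgeR adjusted p = 0.71). Of 9 genes of the LIN28 and let-7 list tested, 1 was called higher and 0 lower, with a median of −0.03. *HMGA2*, at 14690, 14270 and 20570 in 36h and 26710, 39310 and 35890 in P5_EPI, rose (log2 fold change 1.07, SE 0.16, edgeR adjusted p = 0.0093), and is lost without r1 (edgeR adjusted p = 0.016) or r3 (edgeR adjusted p = 0.013). For the cell cycle edgeR called 0 of 21 tested of 23 (8 at an unadjusted p under 0.05; DESeq2 1 higher and 1 lower), with a median of 0.01. Of 7 DNA methylation genes tested of 8, 0 were called higher and 2 lower, with a median of 0.30 (DESeq2, 1 higher and 2 lower). *DNMT3B*, at 25820, 31900 and 14960 in 36h and 7797, 7180 and 6485 in P5_EPI, fell (log2 fold change −1.66, SE 0.20, edgeR adjusted p = 0.006), lost without r1 (edgeR adjusted p = 0.014), and *TET1*, at 8163, 7579 and 8009 in 36h and 3121, 3464 and 3815 in P5_EPI, fell (log2 fold change −1.16, SE 0.10, edgeR adjusted p = 0.0031). Neither overlapped between the groups.

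Of 11 classical cadherins tested of 14, 2 were called higher and 1 lower (*CDH1*), with a median log2 fold change of 0.52 (DESeq2, 4 higher and 2 lower). *CDH6* was at 546, 457 and 736 in 36h and 16890, 24340 and 24960 in P5_EPI, and *CDH4* at 830, 867 and 1037 and 2115, 2330 and 2126, higher in every P5_EPI library. *CDH6* rose (log2 fold change 5.29, SE 0.20, edgeR adjusted p = 0.00072) and *CDH4* rose 2.46-fold (log2 SE 0.13, edgeR adjusted p = 0.0039), the last lost without r1 (edgeR adjusted p = 0.01). Laminins, collagen IV and integrins gave 2 called higher and 2 lower of 27 tested of 28 (median 0.30), beside 3.29% and 4.61% of all genes. The counts were 6 higher and 1 lower without r1, and 6 higher and 3 lower with DESeq2. *ITGA8*, at 3.68, 8.08 and 1.67 in 36h and 313, 219 and 394 in P5_EPI, rose (log2 fold change 6.16, SE 0.63, edgeR adjusted p = 0.0043), and *NID1*, at 3725, 3629 and 4232 in 36h and 12390, 16510 and 18180 in P5_EPI, rose (log2 fold change 2.04, SE 0.12, edgeR adjusted p = 0.0016). *ITGB8*, at 810, 1301 and 961 in 36h and 332, 254 and 191 in P5_EPI, fell (log2 fold change −1.96, SE 0.27, edgeR adjusted p = 0.0084), lost without r3 (edgeR adjusted p = 0.018). *ITGA6*, at 8693, 6641 and 3974 in 36h and 3361, 2723 and 2299 in P5_EPI, fell (log2 fold change −1.12, SE 0.14, edgeR adjusted p = 0.0069), lost without r1 (edgeR adjusted p = 0.017). In none of the 4 did the groups overlap.

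Glycolysis and hypoxia genes gave 0 called higher and 7 lower of 22 tested of 23, with a median log2 fold change of −0.70. *PDK1* was at 8488, 11250 and 9683 in 36h and 768, 1099 and 943 in P5_EPI, *EGLN3* at 374, 301 and 162 and 23.6, 28.5 and 36, *ENO2* at 6221, 3227 and 2125 and 790, 625 and 652, and *ALDOC* at 1863, 1610 and 1464 and 412, 596 and 626. The 36h libraries were higher for all 4 in each replicate. *PDK1* fell (log2 fold change −3.36, SE 0.09, edgeR adjusted p = 0.00046) and *EGLN3* fell (log2 fold change −3.15, SE 0.44, edgeR adjusted p = 0.0083), the latter lost without r1 (edgeR adjusted p = 0.018). *ENO2* fell (log2 fold change −2.32, SE 0.26, edgeR adjusted p = 0.0053) and *ALDOC* fell (log2 fold change −1.58, SE 0.22, edgeR adjusted p = 0.0082). *HK1*, at 8633, 10770 and 12180 in 36h and 4201, 5869 and 5318 in P5_EPI, fell (log2 fold change −1.01, SE 0.10, edgeR adjusted p = 0.004) and is lost without r1 (edgeR adjusted p = 0.011) or r3 (edgeR adjusted p = 0.011), and it is not called by DESeq2, where its change is below 2-fold (DESeq2 adjusted p = 1.8e-13). Cholesterol synthesis gave 0 calls of 18 tested by edgeR (5 at an unadjusted p under 0.05; DESeq2 0), with a median of 0.25. Of 18 dissociation and stress genes tested of 20, 0 were called higher and 1 lower, beside 3.29% and 4.61% of all genes (median −0.16; DESeq2 0 higher and 5 lower; without r3 0 higher and 2 lower). Summed levels of the list were 2550, 4860 and 2702 TPM in 36h and 3483, 3892 and 4350 TPM in P5_EPI, overlapping. *IER3*, at 917, 7307 and 4066 in 36h and 162, 684 and 785 in P5_EPI, fell (log2 fold change −2.74, SE 0.25, edgeR adjusted p = 0.0033), with all P5_EPI libraries below 36h.

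Along the course of whole cultures, 185, 218, 143, 57 and 5 of the 608 genes called higher were first past the midpoint between 36h and P5_EPI at P1, P2, P3, P4 and P5. For the 850 called lower the counts were 253, 320, 198, 73 and 6. By P3 89.8% of the first and 90.71% of the second had passed it, and 1248 of the 1458 (85.6%) had the same passage by TPM. P8_EPI lay on the P5_EPI side of the midpoint for 584 of the genes called higher and 766 of those called lower, and P5_MES for 565 and 815. These genes were chosen by their difference between 36h and P5_EPI, so a large share on one side is expected.

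**Figure D5:**
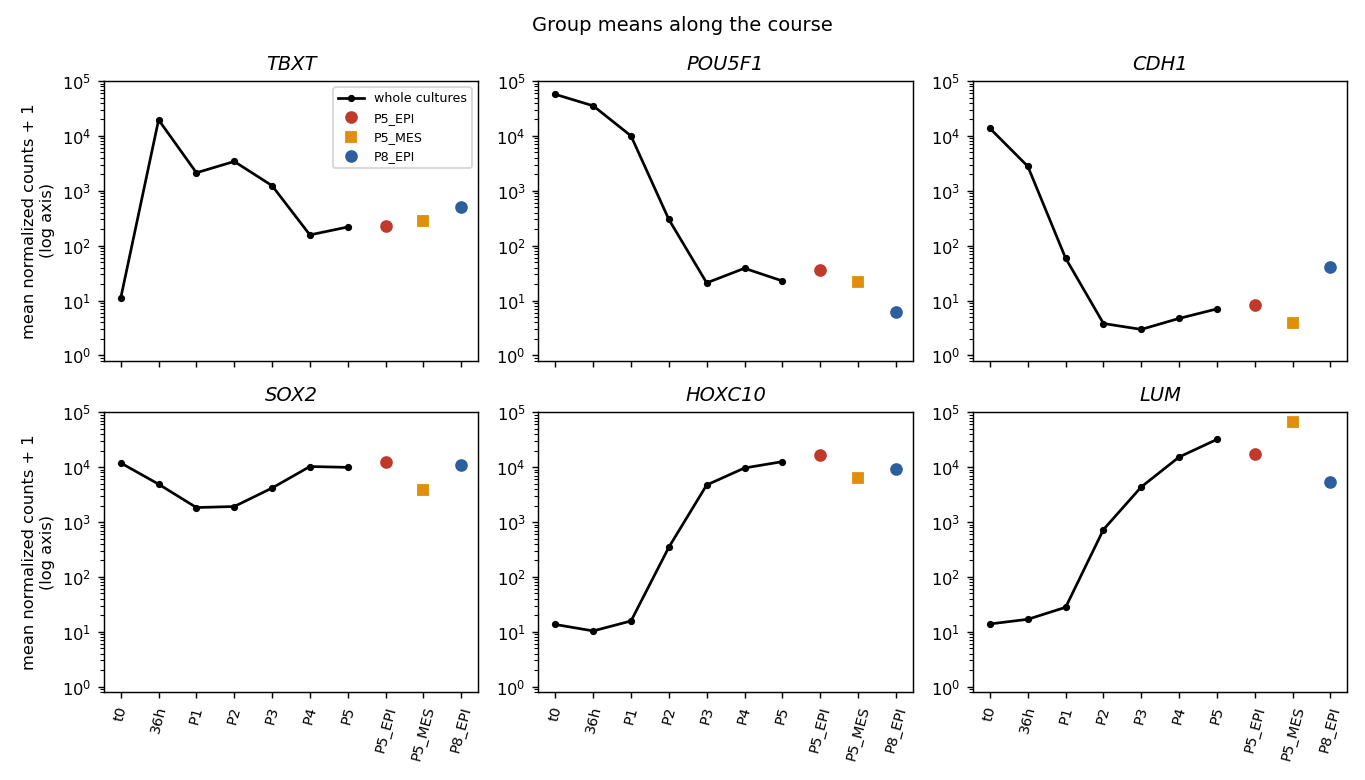
Mean normalized counts of TBXT, POU5F1, CDH1, SOX2, HOXC10 and LUM from t0 through 36h to P5 and in the fractions, with 89.8% of the genes called higher past their midpoint by P3.

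Against the other fraction of the same passage, P5_MES, edgeR called 0 of 17664 genes tested at FDR under 1%, with 6585 at an unadjusted p under 0.05, and DESeq2 called 941 (446 higher in P5_EPI and 495 lower). At FDR under 5% edgeR called 950 (5.38%), 425 higher and 525 lower. In P5_MES *SOX2* was at 5296, 4164 and 1943, below every P5_EPI library (log2 difference 1.77, SE 0.20, edgeR adjusted p = 0.011), and *LUM* was above every one of them (log2 difference −2.52, SE 0.57, edgeR adjusted p = 0.038). *NEUROG2* was at 417, 60.3 and 31 in P5_MES (log2 difference 2.10, SE 0.28, edgeR adjusted p = 0.014), *HOXC10* at 6622, 9271 and 3386 (log2 difference 1.49, SE 0.25, edgeR adjusted p = 0.021) and *SOX10* above P5_EPI in each pair (log2 difference −3.12, SE 0.15, edgeR adjusted p = 0.01). *CDH1* was at 1.8, 4.86 and 1.94 in P5_MES and *EPCAM* at 59.4, 66.1 and 11.6, below P5_EPI in each pair, though both were low in both fractions. *PROM1* was at 3827, 5522 and 2660 in P5_MES, below every P5_EPI library (log2 difference 1.19, SE 0.16, edgeR adjusted p = 0.014). Not all pre-neural genes were on the EPI side, as *HHIP* was at 11400, 5777 and 4868 in P5_MES, above every P5_EPI library (log2 difference −1.11, SE 0.12, edgeR adjusted p = 0.011), and of the list 8 were higher and 2 lower in P5_EPI at FDR under 5%. The root mean square log2 distance from P5_EPI to P5_MES of the same number was 0.65, 0.498 and 0.627.

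Against t0 edgeR called 3435 of 18915 genes tested (18.2%), 1490 higher in P5_EPI and 1945 lower. The 3 comparisons share the P5_EPI libraries, so their calls are not independent and are not set against each other. *SOX2* in t0 was at 11540, 11670 and 12590, in the range of P5_EPI.

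Several limits bear on these results. There are 3 differentiations of 1 cell line, the 36h libraries differ widely among them, and no gene is called at FDR under 1% when r2 is left out. A whole culture is set against an enriched fraction, and 36 h has no fractions to match. PolyA libraries of bulk RNA give no share of cells, no protein and no epithelial form. A gene without a call is not shown to be level.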

How the data were processed

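RNA was measured as single-end polyA libraries, and the authors deposited RSEM (1.3.0) expected counts and TPM per gene for 47 libraries, made with cutadapt 1.16, STAR 2.5.2b and GRCh38. The annotation release and strand setting are not given in the sources used here, and 57447 of 58051 genes matched GENCODE 29 identifiers. Expected counts were rounded and the 6 compared libraries fitted in edgeR 4.0.16 (R 4.3.3) with TMM, filterByExpr, the quasi-likelihood F-test and the replicate number as a block. A gene was called where the FDR was under 1%, the levels differed 2-fold or more and their average reached 100 normalized counts. These thresholds are those of the study, but the study took its minimum from the DESeq2 base mean, whereas edgeR and TMM were used here. The same fit was made for P5_EPI against P5_MES and against t0. Normalized counts use TMM factors over 47 libraries.

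Replicate numbers mark a shared differentiation per the labels. This was checked over 13214 genes on deviations, the log2 level of a gene in a library less the mean of its group. Deviations of libraries of the same number correlated at 0.11, 0.13 and 0.07 between 36h and P5_EPI. They correlated at 0.66, 0.64 and 0.57 between P5_EPI and P5_MES and at −0.06, 0.03 and −0.04 between t0 and P5_EPI. Deviations of libraries of different numbers correlated at −0.12 to 0.05, −0.5 to −0.05 and −0.05 to 0.08 in these comparisons. Within a group the deviations cancel, so these correlations are not independent of each other.

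Genes named are the stage markers of the study, the 6 protein-coding genes outside *HOX* with the largest called change in each direction, and in each of 32 gene lists up to 4 called members in each direction and uncalled members on which the list turns. Members and lists were chosen with earlier results of these data known. *DPPA4*, *EPCAM*, *KRT8*, *KRT18*, *HOXC8*, *HOXC6*, *HOXB6*, *ID4*, *BMPR1B* and *HK1* were named after their values were seen. Alternatives were DESeq2 1.42.0, its size factors, other filters and thresholds, all 47 libraries in the fit, no block and each replicate left out.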

Additional observations from a re-analysis of the deposited data

Results flagged for a closer look

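*GBX2* is flagged because it differs in its change from 36h between the fractions. It was the only gene picked among 137 named genes looked at for such opposite changes. Its change from 36h in P5_EPI was not called (log2 fold change 0.37, edgeR adjusted p = 0.051). Its mean log2 change from 36h was 0.33 in P5_EPI and −1.29 in P5_MES, up in every pair of P5_EPI (0.36, 0.49 and 0.15) and down in every pair of P5_MES (−1.21, −0.51 and −2.16). The direct comparison of the fractions at passage 5 gave a log2 difference of 1.60 for P5_EPI over P5_MES (SE 0.25, edgeR adjusted p = 0.018), which is not past an FDR of 1%. DESeq2 called *GBX2* higher in P5_EPI than in P5_MES (DESeq2 adjusted p = 2.6e-10). Both changes use the same 36h libraries. The direct comparison uses the P5_EPI and P5_MES libraries by which *GBX2* was picked, so it is no separate evidence of the difference.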

How the results depend on the processing

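Counts of calls between P5_EPI and 36h, 1458 in the main fit, went to 2409 (1069 higher and 1340 lower) with DESeq2 and 2326 (994 and 1332) at FDR under 5%. With 1 replicate left out they ran from 0 to 1356 (higher, 0 to 606; lower, 0 to 778), with 0 when r2 was left out. Fewer libraries were then tested, and why r2 matters most was not tested. For P5_EPI against P5_MES, 0 in the main fit, the count was 941 with DESeq2, 940 without the count filter, 119 with a minimum of 10 counts, 13 with all 47 libraries, 950 at FDR under 5% and 0 to 258 with 1 replicate left out. For P5_EPI against t0, 3435 in the main fit, it was 5228 without the minimum mean and 6367 without the minimum fold. The other causes were not tested.

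Without the replicate block the counts of calls were 1689, 0 and 3520 for the 3 comparisons, each within 1.5 times the main count. Among named genes the fit without the block lost the calls of *NODAL*, *TACR1*, *GDF3*, *TEK*, *SFRP2*, *DUSP6*, *ITGA6*, *IER3* and *MEIS1*, added *MIXL1*, *HOXC13*, *WNT5B* and *AXIN2*, and changed no other call. With all 47 libraries in the fit, 9 of 136 named genes lost the call and 14 gained one.

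Some genes that were not called turned direction. With 1 replicate left out the log2 fold change ran from −0.47 to 1.31 for *IRX3*, −0.09 to 0.07 for *LIN28A*, −0.07 to 0.01 for *LIN28B*, −3.27 to 0.28 for *FGF17*, −0.08 to 0.70 for *CDH2*, −0.28 to 0.47 for *VIM*, −0.50 to 0.31 for *COL1A2*, −0.72 to 1.84 for *SOX10* and −0.30 to 0.98 for *SOX9*. *LIN28A* turned to 0.01 without the count filter and 0.00 with all 47 libraries, *SOX10* to −0.23 with all 47 libraries, and without the block *VIM* to −0.08 and *COL1A2* to 0.08.

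Of 1587 values of named genes under the alternatives, 1359 kept their direction and side of the threshold, 143 lost the call, 70 gained one and 15 turned direction. Of 960 list counts 690 stayed within 1.5 times the main count. Every library had at least 13029491 reads, so depth limits mainly genes with few reads. Where every library of a group had at most 3 counts of a named gene, its change, if printed, is a bound or an interval. Other genes with few reads in a group, such as *NTS*, *WNT3A* and *NEUROG2*, have fitted log2 fold changes.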

Other observations

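Of 903 lincRNA genes tested, a class looked at after the values were seen, 40 were called (4.43%, against 7.9% of all genes), 11 higher and 29 lower in P5_EPI. *LINC01356* (chr1:112820170-112850643) was at 9242, 5644 and 1924 in 36h and 0.693, 0 and 0 in P5_EPI. *LINC00458* was at 3877, 10170 and 1046 in 36h and 4.16, 3.96 and 5.26 in P5_EPI. All 36h libraries lay above all P5_EPI libraries for both. *LINC00458* fell (log2 fold change −9.88, SE 0.59, edgeR adjusted p = 0.0016).

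Of the lincRNA genes called higher, 3 of 11 lay within 100 kb of a *HOX* gene, and of those called lower 0 of 29 (11 of 903 tested). *AC012531.1* overlaps *HOXC4*, lies within the span of *HOXC6*, and was at 2.46, 1.15 and 1.67 in 36h and 1587, 1847 and 1178 in P5_EPI. *LINC02086* lies 13.4 kb from *HOXB7* and was at 12.3, 32.3 and 25.8 in 36h and 3000, 4595 and 3083 in P5_EPI. *AC103702.2* lies 2.35 kb from *HOXB7* and was at 0, 6.93 and 33.3 in 36h and 2216, 2274 and 1081 in P5_EPI. All 3 were high in every P5_EPI library and low in every 36h library. *AC012531.1* was called higher (edgeR adjusted p = 0.00046), with too few reads in 36h for an exact fold change. *LINC02086* rose by 7.28 (SE 0.24, edgeR adjusted p = 0.00047) and *AC103702.2* by 7.13 (SE 1.05, edgeR adjusted p = 0.0096) on the log2 scale. As the strand setting is not stated, reads of an overlapping *HOX* gene may be counted for such a gene, and this was not tested.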
